A study of Mus musculus with 8 samples.

Results

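The 36 genes described here make or use the small RNAs and RNA-protein granules of male germ cells, or control when messenger RNAs are translated. They comprise PIWI proteins, factors of piRNA biogenesis, Tudor domain proteins, RNA helicases with a partner methyltransferase, regulators of translation in germ cells, general RNA-binding and translation factors, and 2 factors of microRNA processing. The members were taken from a fixed list of symbols, and a gene was read from the brightest of its probe sets that carry that symbol and no other. All 36 members were measured, by 38 probe sets, among 19938 genes with such a probe set on the array.

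Levels were measured in whole testes of 3 Ing2+/+ and 5 Ing2-/- mice aged 2 to 3 months, with 1 Affymetrix Mouse Gene ST array for each mouse and no pooling. Ing2 encodes a subunit of a histone deacetylase complex that binds a methylated histone mark. The Ing2-/- mice lacked exon 2 of Ing2 in every cell, because the allele was deleted in the germ line with EIIa-Cre and the Cre was then bred out, so loss in germ cells and loss in somatic cells of the testis cannot be told apart. The mice came from 129/Sv embryonic stem cells and were bred with C57BL/6J. The comparison asks which transcripts of the testis differ when Ing2 is absent.

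In germ cells, PIWI proteins carry piRNAs, short RNAs that guide the silencing of transposons and, in meiosis, a large set of piRNAs made from long intergenic transcripts. Precursors are unwound and cleaved near mitochondria, loaded on PIWI proteins, trimmed and methylated, and Tudor domain proteins hold these steps together in germ granules such as the intermitochondrial cement and the chromatoid body of round spermatids. Transcription ceases as the spermatid nucleus condenses, and many messenger RNAs are therefore stored and translated later under the control of RNA-binding proteins and poly(A) polymerases.

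The authors deposited RMA values, which bring all arrays to a common distribution on the log2 scale, so a level says how a transcript stands against the rest of that testis's RNA. Values below are log2 levels, and differences are Ing2-/- minus Ing2+/+ means. Ing2 checked the labels. Its level was 7.43, 7.60 and 7.34 in the Ing2+/+ arrays and 5.06, 5.64, 5.21, 5.29 and 5.25 in the Ing2-/- arrays, a difference of -2.16 (SE 0.127, limma adjusted p = 3.95e-04). Array medians lay between 6.41 and 6.53. The Ing2-/- replicate 3 array stood apart, with a mean Pearson r of 0.983 with its own group across probe sets, against 0.990 to 0.992 for the other Ing2-/- arrays and 0.995 for all 3 Ing2+/+ arrays, and the differences are also given without it where its absence turned their sign or moved them by more than 1.5-fold. The germ cell members Ddx4, Dazl, Mael and Ddx25 lay above 9.8 in every array, against medians of 5.47 to 5.62 for probe sets without a gene name.

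No member was called with all 8 arrays. At a limma adjusted p under 0.05, 0 of 36 members passed, beside 4.98% of all 19938 genes (1.97% higher and 3.01% lower in Ing2-/- testes). At an unadjusted p under 0.05, 7 members had lower means (13.5% of all genes) and 1 had a higher mean (16.5% of all genes). The random variance model named in the methods, at an unadjusted p under 0.001, also gave 0 (2.71% of all genes). The smallest adjusted p was 0.0612, for Celf1. Differences ran from -0.54 for Henmt1 to 0.36 for Celf1, with 24 members below 0 and 12 above, a median of -0.08 for the members and 0.02 for all genes. The median size of the difference regardless of sign was 0.15 for the members and 0.13 for all genes. The 95% intervals of 26 members lay wholly within 0.5 of 0, and for Henmt1 alone did the interval reach a 2-fold difference.

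Without Ing2-/- replicate 3, 5 members were called. Henmt1 fell by 0.35, Tdrd6 by 0.32, Papolb by 0.28 and Tdrd7 by 0.26, and Celf1 rose by 0.30 on the log2 scale, with limma adjusted p-values of 0.0144, 0.0221, 0.0294, 0.0381 and 0.0178. In that fit 7.76% of all genes were called lower and 8.72% higher, and beside these shares the number of members called says nothing particular to the members. Giving each array a weight by its spread, which left that array a weight of 0.212, called the same 5 members and Tdrd3 (9.28% of all genes lower, 11.3% higher). The differences of these members were smaller without the array, as its levels were the most extreme of the 5, and the spread within the group narrowed with it. Leaving out any other single array called 0 members, beside 0.201% to 5.2% of all genes.

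**Figure D1:**
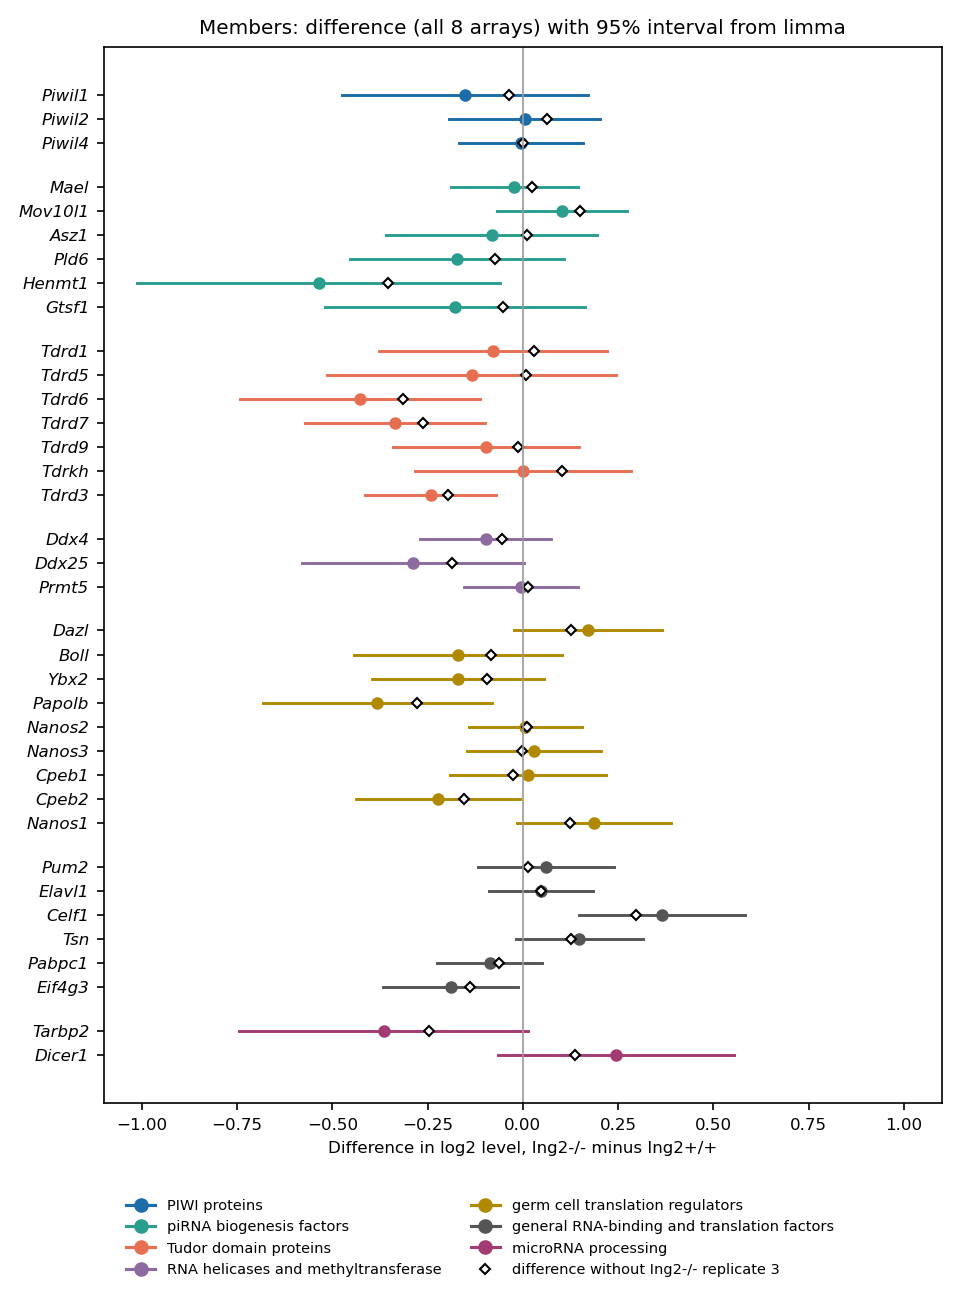
Difference in log2 level between Ing2-/- (n = 5) and Ing2+/+ (n = 3) testes for the 36 members, grouped by role. Filled circles are the difference over 8 arrays, lines the 95% interval from limma, and open diamonds the difference without Ing2-/- replicate 3, which is nearer 0 for all of the members with the largest differences.

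The start of each gene that was called without replicate 3 is shown so that the upstream sequence of the members can be read beside their levels, and these genes were chosen after their values were seen. Each window holds the 250 bases before a RefSeq transcript start in GRCm38.p6, 5′ to 3′ on the strand of the gene, and capitals mark matches to the motifs searched. Henmt1 lies on the plus strand (window chr3:108940307-108940556), Papolb on the minus strand (chr5:142530077-142530326), Tdrd7 on the plus strand (chr4:45965085-45965334, the first of its 3 listed starts) and Celf1 on the plus strand (chr2:90940147-90940396). Tdrd6 has no window in the table.
Henmt1: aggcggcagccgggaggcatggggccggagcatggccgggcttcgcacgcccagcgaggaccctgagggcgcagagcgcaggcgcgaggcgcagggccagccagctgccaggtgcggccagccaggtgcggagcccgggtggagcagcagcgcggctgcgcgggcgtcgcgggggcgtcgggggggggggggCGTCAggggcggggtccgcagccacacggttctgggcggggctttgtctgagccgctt
Papolb: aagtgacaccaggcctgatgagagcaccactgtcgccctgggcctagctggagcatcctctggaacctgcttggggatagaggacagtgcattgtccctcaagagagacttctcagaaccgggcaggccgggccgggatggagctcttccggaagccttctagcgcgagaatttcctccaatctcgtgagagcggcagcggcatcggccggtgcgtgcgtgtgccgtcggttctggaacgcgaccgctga
Tdrd7: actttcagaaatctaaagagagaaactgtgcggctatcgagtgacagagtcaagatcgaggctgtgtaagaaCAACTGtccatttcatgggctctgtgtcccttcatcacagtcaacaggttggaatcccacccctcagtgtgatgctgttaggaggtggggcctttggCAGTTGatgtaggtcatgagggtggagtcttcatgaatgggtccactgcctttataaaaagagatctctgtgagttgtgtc
Celf1: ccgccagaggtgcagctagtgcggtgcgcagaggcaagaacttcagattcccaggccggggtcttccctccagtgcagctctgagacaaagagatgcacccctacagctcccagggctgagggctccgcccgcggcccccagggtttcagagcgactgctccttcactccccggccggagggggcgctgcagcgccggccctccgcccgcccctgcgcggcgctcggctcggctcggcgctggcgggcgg

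The motifs were the cyclic AMP response element TGACGTCA, its shorter site TGACG, which every full element also holds, and 4 MYB hexamers (first CAACTG, then CAACGG, then TAACTG, and last TAACGG), on both strands. CREM and MYBL1, factors of spermatids and of pachytene spermatocytes, are known to bind sites of these kinds. The Henmt1 window held 1 TGACG match, 58 bases before the start, and the Tdrd7 window held MYB matches 178 and 81 bases before the start. The windows of the other 2 Tdrd7 starts, not printed, held 1 TGACG match (164 bases before the start) and 1 MYB match (99 bases before). No match occurred in the Papolb and Celf1 windows. Of 43 windows of 32 members, 10 held TGACG (23.3%, beside 17.8% of all 32851 windows), 9 held a MYB hexamer (20.9%, beside 23.7%) and 0 held the full element (beside 1.55%). A match is a run of letters and not a measured site. Piwil2, Tdrd6, Cpeb2 and Pabpc1 were not searched.

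Among the PIWI proteins, Piwil1 (MIWI), which binds the piRNAs of meiosis and of round spermatids, read 10.74, 10.69 and 10.73 in Ing2+/+ testes and 10.74, 10.75, 10.10, 10.60 and 10.65 in Ing2-/- testes. The groups overlapped, and replicate 3 was the only Ing2-/- array far below the rest. Its difference was -0.15 (95% interval -0.47 to 0.17, limma adjusted p = 0.527) and -0.04 without replicate 3. Piwil2 (MILI), which acts from the fetal gonad to the round spermatid, differed by 0.00 (interval -0.19 to 0.20), and by 0.06 without replicate 3. Piwil4 (MIWI2), the nuclear PIWI protein of fetal prospermatogonia, differed by -0.01 (interval -0.17 to 0.16, and 0.00018 without replicate 3), but lay below the median of the unnamed probe sets on every array and was not shown to be above background.

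Of the 6 biogenesis factors, Henmt1, the methyltransferase that protects the end of mature piRNAs, had the largest difference of all members. Its level was 9.11, 9.02 and 9.12 in Ing2+/+ testes and 8.80, 8.68, 7.82, 8.79 and 8.64 in Ing2-/- testes. All 5 Ing2-/- arrays lay below the 3 Ing2+/+ arrays, and replicate 3 lay furthest down. The means were 9.08 ± 0.0561 (SD, n = 3) and 8.55 ± 0.412 (SD, n = 5), so the Ing2-/- level was 69.0% of the Ing2+/+ level (95% interval 49.6 to 95.9%, limma adjusted p = 0.141). In whole testis, fewer cells that express a gene and less RNA of it per cell cannot be told apart, here and for every member below.

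The other biogenesis factors lay closer together between the genotypes. Mael, a protein of the germ granule needed for silencing of transposons, read 11.93, 11.93 and 11.96 in Ing2+/+ testes and 11.98, 11.94, 11.74, 12.01 and 11.93 in Ing2-/- testes. The groups overlapped, with a difference of -0.02 (interval -0.19 to 0.15) that was 0.02 without replicate 3. Pld6, a mitochondrial surface protein required for primary piRNAs, differed by -0.17 (interval -0.45 to 0.11), and Asz1, its partner at the mitochondrion, by -0.08 (interval -0.36 to 0.20). Gtsf1, a small zinc finger cofactor of PIWI proteins, differed by -0.18 (interval -0.52 to 0.16). Without replicate 3 these 3 differences were -0.07 for Pld6, 0.01 for Asz1 and -0.05 for Gtsf1. Mov10l1, the helicase that binds piRNA precursors, had a difference of 0.10 (interval -0.07 to 0.27), and of 0.15 without replicate 3.

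**Figure D2:**
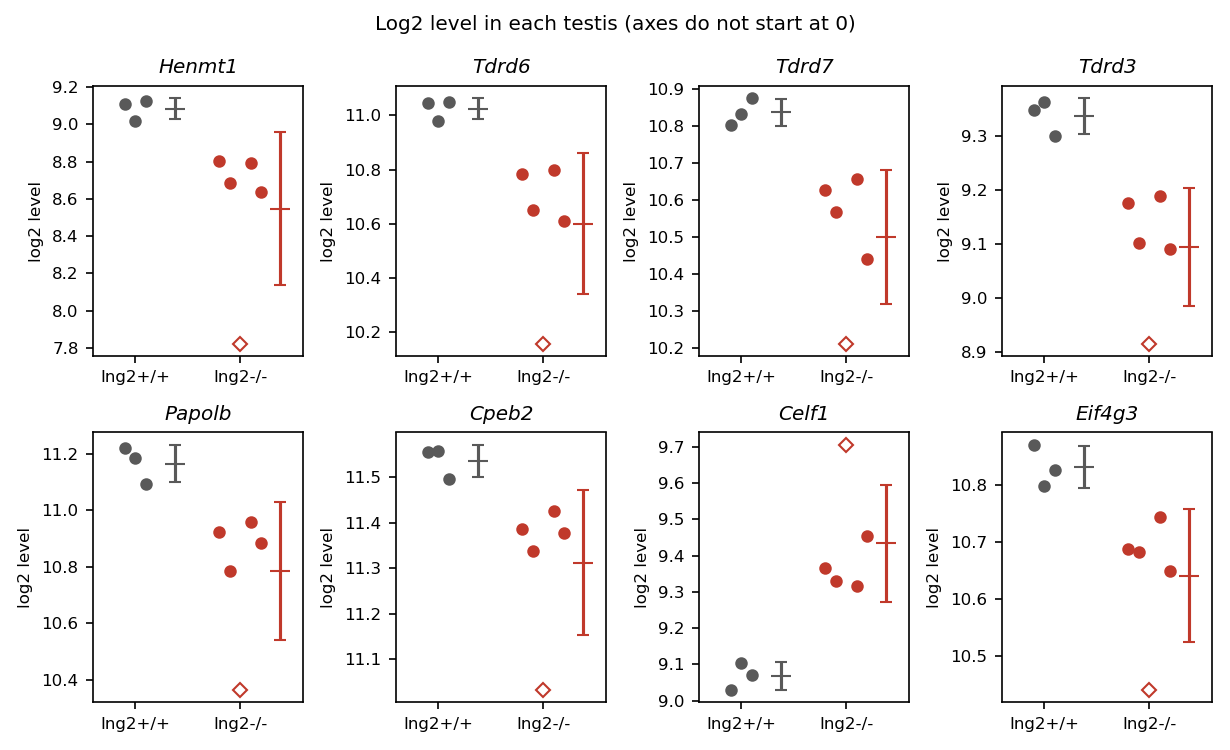
Log2 level of the 8 members with an unadjusted limma p under 0.05 in each Ing2+/+ (grey) and Ing2-/- (red) testis; bars are mean ± SD, the open diamond is Ing2-/- replicate 3, and the axes do not start at 0. In each panel the 2 genotypes do not overlap, and replicate 3 is the extreme Ing2-/- array.

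All 7 Tudor domain genes had a difference below 0 over 8 arrays, though that of Tdrkh was only -0.00026. The differences of Tdrd1 (0.03), Tdrd5 (0.01) and Tdrkh (0.10) were above 0 without replicate 3. In Ing2-/- testes 3 of the 7 lay wholly below the Ing2+/+ arrays, beside 14.9% of all genes. Tdrd6, a large scaffold of the chromatoid body, read 11.05, 10.98 and 11.05 in Ing2+/+ testes and 10.78, 10.65, 10.16, 10.80 and 10.61 in Ing2-/- testes. Its difference was -0.43 (SE 0.139, interval -0.74 to -0.11, limma adjusted p = 0.0971). Every Ing2-/- array was below every Ing2+/+ array by more than the whole Ing2+/+ range. Tdrd7, which remodels germ granules and is needed for the chromatoid body, read 10.80, 10.83 and 10.87 in Ing2+/+ testes and 10.63, 10.57, 10.21, 10.66 and 10.44 in Ing2-/- testes. The difference was -0.34 (SE 0.104, adjusted p = 0.0874), again with no overlap.

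Tdrd3, a broadly expressed Tudor protein that binds methylated arginines of chromatin-associated proteins, read 9.35, 9.36 and 9.30 in Ing2+/+ testes and 9.18, 9.10, 8.92, 9.19 and 9.09 in Ing2-/- testes. The groups were separate and the difference was -0.24 (SE 0.0755, limma adjusted p = 0.0888), with an exact permutation p of 0.0179, the smallest that 56 splits of 3 and 5 arrays allow. Without replicate 3 the difference was -0.20 and the adjusted p 0.0531. The 4 remaining Tudor genes overlapped between the genotypes. Tdrd1, which gathers PIWI proteins in the intermitochondrial cement, differed by -0.08, Tdrd5, required for assembly of germ granules, by -0.13, and Tdrd9, a helicase partner of PIWI proteins, by -0.10 (-0.01 without replicate 3). Tdrkh, the mitochondrial Tudor protein that recruits the trimming enzyme, differed by less than 0.01, with an interval from -0.28 to 0.28.

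The helicase Ddx4 (MVH), which marks the whole germ line, read 11.80, 11.74 and 11.75 in Ing2+/+ testes and 11.68, 11.64, 11.49, 11.76 and 11.75 in Ing2-/- testes. The groups overlapped, with a difference of -0.10 (interval -0.27 to 0.08) that was -0.05 without replicate 3. Ddx25 (GRTH), a helicase of meiotic and haploid cells that exports and helps translate spermatid messages, read 11.12, 11.12 and 11.21 in Ing2+/+ testes and 11.00, 10.95, 10.45, 11.02 and 10.88 in Ing2-/- testes. The 2 genotypes did not overlap, but the difference of -0.29 (SE 0.128) had a limma adjusted p of 0.182 and was -0.19 without replicate 3. Prmt5, the methyltransferase that marks PIWI proteins for Tudor binding, differed by -0.01 (interval -0.16 to 0.14; 0.01 without replicate 3), and its arrays were intermingled.

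Among the 9 regulators of translation in germ cells, Papolb (TPAP), the cytoplasmic poly(A) polymerase of spermatids, had the smallest p. It read 11.22, 11.18 and 11.09 in Ing2+/+ testes and 10.92, 10.79, 10.36, 10.96 and 10.89 in Ing2-/- testes. No Ing2-/- array reached the lowest Ing2+/+ array, and the difference was -0.38 (SE 0.133, interval -0.68 to -0.08, limma adjusted p = 0.109). Cpeb2, which binds the cytoplasmic polyadenylation element, read 11.56, 11.56 and 11.50 in Ing2+/+ testes and 11.39, 11.34, 11.03, 11.43 and 11.38 in Ing2-/- testes. These groups were also separate (difference -0.22, SE 0.0947, adjusted p = 0.167). Its relative Cpeb1, which acts in early meiosis, differed by 0.01 (interval -0.19 to 0.22), and by -0.03 without replicate 3.

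Ybx2 (MSY2), the protein that coats and stores messages in spermatids, read 11.46, 11.47 and 11.52 in Ing2+/+ testes and 11.44, 11.41, 11.01, 11.36 and 11.33 in Ing2-/- testes. The lowest Ing2+/+ and the highest Ing2-/- array were 0.02 apart, and the difference was -0.17 (interval -0.40 to 0.06), or -0.09 without replicate 3. The related RNA-binding proteins Dazl and Boll had differences of opposite sign, 0.17 (interval -0.02 to 0.37) for Dazl, which acts from spermatogonia to early meiosis, and -0.17 (interval -0.44 to 0.10) for Boll, which acts later (0.13 and -0.08 without replicate 3). Each overlapped between the genotypes, and whether these 2 differences differ from each other was not tested.

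The Nanos genes encode zinc finger repressors of translation, of which Nanos2 and Nanos3 mark undifferentiated germ cells. Nanos2 differed by 0.01 (interval -0.14 to 0.15) and Nanos3 by 0.03 (interval -0.15 to 0.20), which was -0.0017 without replicate 3. Nanos1 read 4.86, 4.77 and 4.87 in Ing2+/+ testes and 4.97, 4.99, 5.27, 4.92 and 4.95 in Ing2-/- testes, with the groups apart and a difference of 0.19 (limma adjusted p = 0.211; 0.12 without replicate 3). Nanos1 and Nanos2 lay below the median of the unnamed probe sets on every array, so neither was shown to be above background.

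Of the general RNA-binding and translation factors, Celf1, which binds GU-rich elements and regulates splicing and decay, had the smallest p of all members. It read 9.03, 9.11 and 9.07 in Ing2+/+ testes and 9.36, 9.33, 9.71, 9.32 and 9.45 in Ing2-/- testes. Every Ing2-/- array was higher than every Ing2+/+ array, with a difference of 0.36 (SE 0.0956, interval 0.15 to 0.58), which put the Ing2-/- level at 129% of the Ing2+/+ level. The limma adjusted p was 0.0612 and the exact permutation p 0.0179. Its second probe set gave 0.27 (SE 0.0903). When only probe sets with 1 symbol, or only those above the median level, were tested, Celf1 was called (adjusted p = 0.0454 and 0.0467), beside 8.26% and 11.6% of the genes tested. When each array was shifted so that its Sertoli markers had the same median, the difference of every gene moved down alike by 0.64, the median of all genes to -0.62 and Celf1 to -0.27.

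Eif4g3, an initiation scaffold known for its role in the exit from meiotic prophase, read 10.87, 10.80 and 10.83 in Ing2+/+ testes and 10.69, 10.68, 10.44, 10.74 and 10.65 in Ing2-/- testes. The genotypes did not overlap, and the difference was -0.19 (SE 0.0783, limma adjusted p = 0.158). Pabpc1, the cytoplasmic poly(A)-binding protein, read 12.71, 12.66 and 12.66 in Ing2+/+ testes and 12.63, 12.63, 12.49, 12.63 and 12.56 in Ing2-/- testes. These groups were separate by a small margin, with a difference of -0.09 (interval -0.22 to 0.05). The repressor Pum2 differed by 0.06 (interval -0.12 to 0.24, and 0.01 without replicate 3), Elavl1 (HuR), a stabilizer of AU-rich messages, by 0.05 (interval -0.09 to 0.18), and Tsn (translin), an RNA-binding protein abundant in testis, by 0.15 (interval -0.02 to 0.31). All 3 overlapped between the genotypes.

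The 2 microRNA processing factors had wide intervals. Tarbp2, the partner of Dicer that also binds protamine messages, read 9.19, 9.44 and 9.57 in Ing2+/+ testes and 9.20, 9.31, 8.56, 9.14 and 8.96 in Ing2-/- testes. The groups overlapped, and the difference was -0.37 (interval -0.75 to 0.01, limma adjusted p = 0.193), beside -0.25 for its second probe set. Dicer1, the nuclease that cuts microRNA precursors, read 8.04, 8.11 and 7.96 in Ing2+/+ testes and 8.17, 8.07, 8.71, 8.27 and 8.18 in Ing2-/- testes. It overlapped as well, with a difference of 0.24 (interval -0.07 to 0.55) that was 0.14 without replicate 3.

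Counted over the members, the 2 genotypes did not overlap for 12 genes. They were 10 with lower Ing2-/- levels (14.9% of all genes), namely Henmt1, Tdrd6, Tdrd7, Tdrd3, Ddx25, Ybx2, Papolb, Cpeb2, Pabpc1 and Eif4g3, and 2 with higher levels (16.7% of all genes), Celf1 and Nanos1. Of the 8 members with an unadjusted p under 0.05, all were among these 12.

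**Figure D3:**
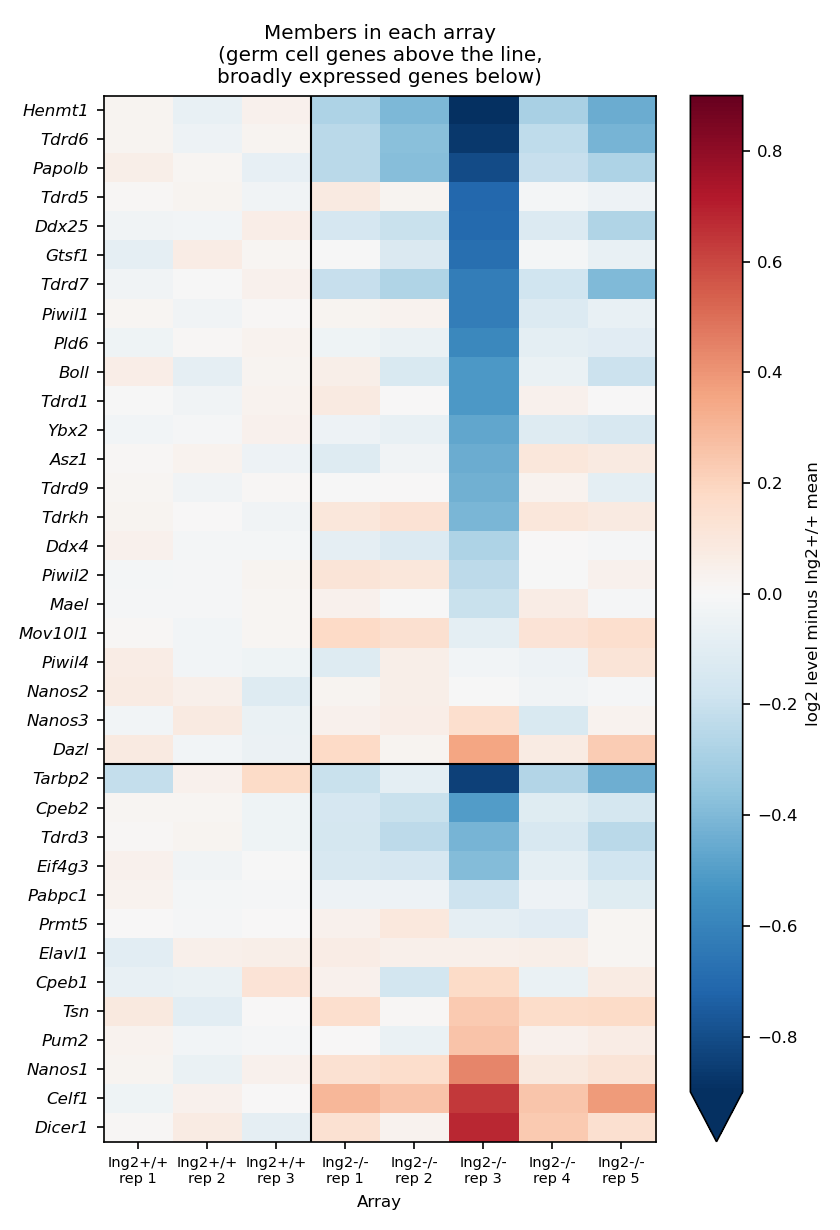
Log2 level minus the Ing2+/+ mean (colour) of the 36 members (rows) in the 8 arrays (columns), germ cell genes above the horizontal line and broadly expressed genes below, each block ordered by the value in Ing2-/- replicate 3; values under -0.9 share the darkest blue. Blue fills most of the germ cell rows of replicate 3, while the other 4 Ing2-/- arrays are paler, with the deepest colours for Henmt1, Tdrd6, Tdrd7, Papolb, Tarbp2 and Celf1.

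Ing2-/- replicate 3 set much of the spread. It was the lowest Ing2-/- array for 24 of 36 members (66.7%), beside 32.9% of all genes, and the highest for 8 of 36, beside 33.7% of all genes. Among the 23 members expressed mainly in germ cells, such as Piwil1, Tdrd5 and Henmt1, it was the lowest for 19, and their mean difference from the Ing2+/+ arrays was -0.43 in replicate 3 against -0.03, -0.07, -0.05 and -0.08 in the other Ing2-/- arrays. These small means joined differences of both signs, which ran without replicate 3 from -0.35 for Henmt1 to 0.15 for Mov10l1. The 13 broadly expressed members, such as Prmt5, Elavl1 and Dicer1, averaged 0.00 in that array and between -0.03 and 0.01 in the others. The average of 0.00 joined differences of both signs in replicate 3, from -0.84 for Tarbp2 to 0.68 for Dicer1. Of the Ing2-/- arrays, replicate 3 was the lowest for 5 of the 13 and the highest for 6. Median differences were -0.10 for the germ cell members and 0.01 for the broad ones over 8 arrays, and -0.014 and 0.012 without replicate 3.

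Marker genes of testis cells moved with the genotype and most in the same array. The mean level of 12 round spermatid markers relative to Ing2+/+ was -0.85 in replicate 3 and -0.35 to -0.16 in the other Ing2-/- arrays, that of 10 pachytene spermatocyte markers -0.58 and -0.26 to -0.14, and that of 12 elongating spermatid markers -0.49 and -0.24 to -0.08. For 12 Sertoli cell markers it was 1.22 and 0.36 to 0.63, for 7 Leydig cell markers 1.03 and 0.35 to 0.82, for 8 macrophage markers 0.67 and 0.13 to 0.47, and for 12 spermatogonial markers 0.38 and 0.11 to 0.24. All of these means lay within 0.04 of 0 in the Ing2+/+ arrays. The spermatogonial markers did not move alike over 8 arrays. Their differences ran from -0.25 for Lhx1 to 0.60 for Kit, with 2 of 12 below 0 and Sohlh1 at 0.02. Whether each listed gene is confined to spermatogonia was not tested, so this mean does not show a rise of these cells. Limma called 1 of 12 round spermatid and 1 of 10 pachytene markers lower (3.01% of all genes) and 5 of 7 Leydig markers higher (1.97%). None of the spermatogonial, elongating spermatid, Sertoli or macrophage markers was called. At an unadjusted p under 0.05, 4 of 12 spermatogonial, 12 of 12 Sertoli and 5 of 8 macrophage markers were higher (16.5% of all genes). So were 6 of 7 Leydig markers. At that threshold 6 of 12 round spermatid, 5 of 10 pachytene and 2 of 12 elongating spermatid markers were lower (13.5% of all genes). A cell mix measure was added as a covariate, namely the Sertoli score less the average of the round and elongating spermatid scores. With it the median difference was 0.06 for the members and 0.02 for all genes. Of the 36 differences, 24 changed sign, and 15 of the 36 were within 0.1 of 0 without the covariate. How many of all genes changed sign was not counted. Of the 8 members with an unadjusted p under 0.05, Henmt1 (0.09) and Cpeb2 (0.01) changed sign. With the covariate Celf1 was at 0.12, Tdrd3 at -0.08, Tdrd7 at -0.06, Tdrd6 at -0.03, Papolb at -0.03 and Eif4g3 at -0.01. The measure lay between -0.018 and 0.011 in the Ing2+/+ arrays, at 1.89 in Ing2-/- replicate 3 and between 0.54 and 0.93 in the other Ing2-/- arrays. Cell mix and genotype therefore cannot be told apart in these samples. The fit with the covariate also rests largely on replicate 3, so the changes of sign cannot be told apart from the weight of that array.

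**Figure D4:**
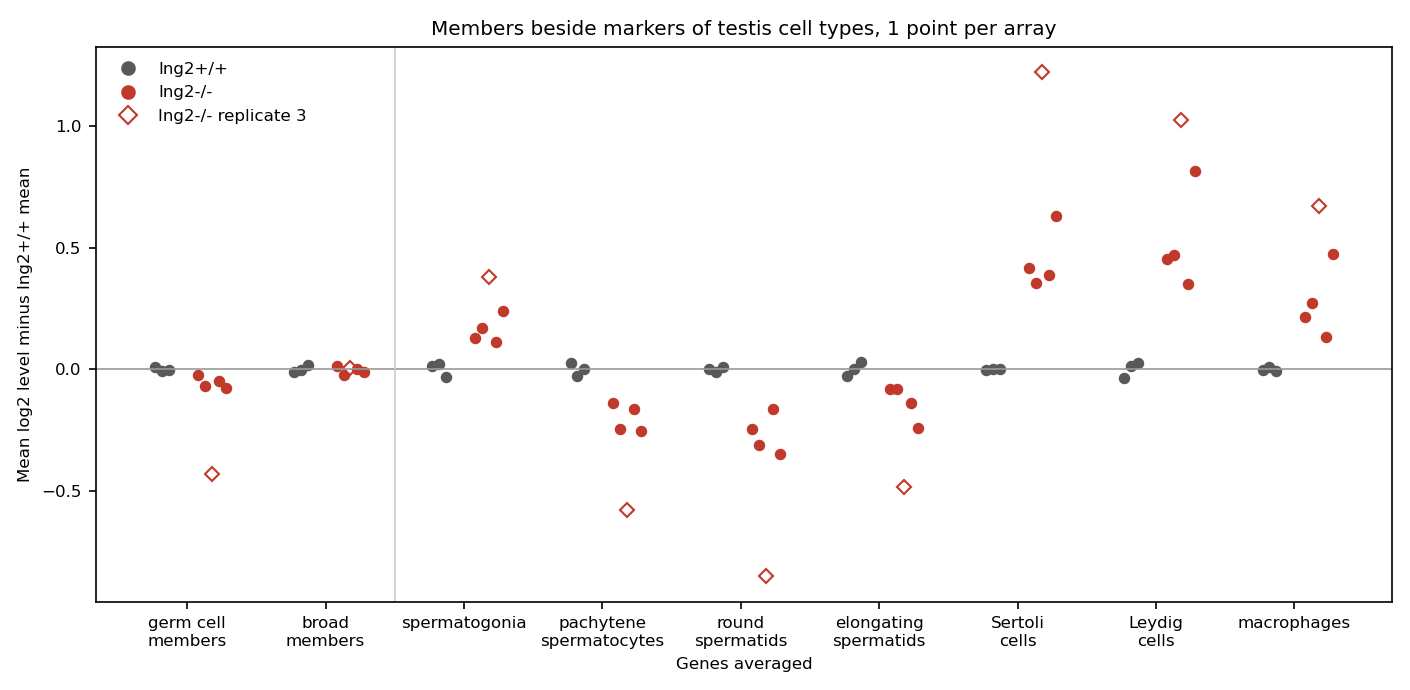
Mean log2 level minus the Ing2+/+ mean, 1 point per array, for the 23 germ cell members and 13 broad members (left) and for the marker lists of testis cell types (right); grey is Ing2+/+, red is Ing2-/- and the open diamond is Ing2-/- replicate 3. The mean of the germ cell members lies near 0 in the Ing2-/- arrays except replicate 3 at -0.43. That mean joins single members with differences of both signs. The means of spermatid markers lie below 0 and those of Sertoli and Leydig markers above 0 in all 5 Ing2-/- arrays.

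The other genes of these pathways were read from a list of 77 further genes, of which 71 were measured. Limma called 1 of the 71, beside 4.98% of all genes, namely Snd1, a Tudor-domain nuclease that associates with PIWI complexes. It read 8.11, 8.27 and 8.28 in Ing2+/+ testes and 8.61, 8.76, 9.25, 8.68 and 8.83 in Ing2-/- testes. Snd1 rose by 0.61 (SE 0.138, adjusted p = 0.0452), with every Ing2-/- array above every Ing2+/+ array, and by 0.50 without replicate 3 (adjusted p = 0.00814). The call was lost in 6 of the 8 fits that left out 1 array (adjusted p up to 0.165), with cyclic loess (adjusted p = 0.0549) and with the cell mix measure as a covariate (difference 0.23, adjusted p = 0.349). The median difference was -0.06 for 13 piRNA pathway genes, 0.14 for 15 germ granule genes and 0.02 for 43 translation genes. The germ granule genes differed in sign. Of the 15, 11 were above 0, among them Ago2, Dcp2 and Ddx6. The 4 below 0 were Rbm44 (-0.39), Kif17 (-0.33), Stk31 (-0.10) and Ago4 (-0.05), so the median does not describe the list as a whole. At an unadjusted p under 0.05, 16 of the 71 had higher and 6 had lower means, beside 16.5% and 13.5% of all genes. Without replicate 3, Snd1, Mov10, Tsnax, Eif4a1, Celf2 and Ythdc2 were called higher (8.72% of all genes). Pabpc2, Khdrbs3 and Lin28b were called lower in that fit (7.76% of all genes).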

How the data were processed

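The authors extracted whole testis RNA with Trizol, hybridized 1 Affymetrix Mouse Gene ST array per mouse and deposited log2 values made with RMA in Affymetrix Expression Console, which corrects background, normalizes between arrays and summarizes each probe set. These values of 35557 probe sets were used as deposited. The small number of arrays limits precision, and a change in total RNA leaves no trace in them. Replicates are separate mice.

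Gene names came from the platform annotation, with symbols updated through gene identifiers for 21698 of 21789 probe sets with 1 symbol. A linear model of genotype without covariates was fitted to every probe set with lmFit and eBayes of limma 3.58.1 (R 4.3.3), with 2.85 prior degrees of freedom, and p-values were adjusted by Benjamini-Hochberg across the whole table. A gene was called at an adjusted p under 0.05. Single genes were also compared by a two-sided exact permutation test of means. The fit was also run on simulated independent values with 200 changed probe sets. These held no outlying array, so they do not test how replicate 3 affects the calls. For the score of a list, the Ing2+/+ mean of each gene was subtracted and the remainders were averaged within an array. Sequences are from RefSeq (GRCm38.p6). Python 3.11.15 with matplotlib 3.10.9 drew the figures.

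The members and all gene lists were chosen with earlier results of these data known, so no list was tested as a whole. Every member is named. All array values are given for the members of each role group with the smallest p, the largest difference or the highest level, and for other members with separate or nearly separate groups, which were chosen after their values were seen. The fit was repeated with a block for the replicate number, without each array in turn, with 2 filters of probe sets, cyclic loess, an equal median of Sertoli markers, other variance models, array weights, the cell mix as a covariate and the mean of a gene's probe sets.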

Additional observations from a re-analysis of the deposited data

Results flagged for a closer look

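In the 5 Ing2-/- arrays, 13 of the 37 genes examined (the 36 members and Ing2) had 1 array set apart from the others, with a gap to its nearest neighbour that took up more than 0.710 of the range of the group. Chance alone flags about 1 in 20 groups, and the genes of 1 array are not independent. In all 13 the array was replicate 3, which was the lowest for 12 genes and the highest for Nanos1. Across all genes, replicate 3 was the lowest Ing2-/- array for 32.9% and the highest for 33.7%. The rule was not applied to all genes, so the count of 13 cannot be read as particular to the members.

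The gap as a share of the range was 0.918 for Tdrkh, 0.887 for Pld6, 0.867 for Tdrd1, 0.837 for Tdrd5, 0.831 for Henmt1, 0.810 for Gtsf1 and 0.777 for Mov10l1. It was 0.776 for Cpeb2, 0.763 for Piwil1, 0.757 for Ybx2, 0.750 for Ddx25 and 0.747 for Tdrd9, and 0.787 for Nanos1. For Henmt1 the gap was 0.82 on the log2 scale, from 8.64 to 7.82. For Tdrd5, Tdrkh and Tdrd1 replicate 3 lay below all 3 Ing2+/+ arrays, while the mean of the other 4 Ing2-/- arrays was 0.01, 0.10 and 0.03 above the Ing2+/+ mean.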

How the results depend on the processing

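Over the alternatives, the number of members called stayed at 0 except in the following. Leaving out 1 array called 0 to 5 members (0 to 1 higher and 0 to 4 lower), 0 to 9 related genes and 0.201% to 16.5% of all genes. The highest counts came without Ing2-/- replicate 3, and 2 related genes were called without Ing2-/- replicate 4. Array weights called 6 members (1 higher, 5 lower) and 12 related genes, beside 20.6% of all genes. Testing only probe sets above the median level, or only probe sets with 1 symbol, called 1 member, Celf1, which was higher, and 4 related genes in each (11.6% and 8.26% of all genes tested). Cyclic loess called 2 related genes, Tex15 and Pabpc2. An equal median of Sertoli markers lowered the difference of every gene alike by 0.64 and called 60.9% of all genes, among them 26 members, all 26 lower, and 41 related genes, with a median over the members of -0.72 beside -0.62 for all genes. Snd1 was not called with cyclic loess or in 6 of the 8 fits without 1 array, nor was any related gene in those 6. Snd1 was not called, and 0 related genes were, with the cell mix as a covariate, with an intensity trend and robust estimation, with each probe set's own variance, and at an unadjusted p under 0.001 by limma or the random variance model. With the replicate number as a block, 0 members, 0 related genes and 0 of all genes were called and the median over the members was -0.14. Only Ing2-/- testes have replicates 4 and 5, so with the block these arrays add nothing to the difference. Ing2 itself was not called in that fit, so its lack of calls says nothing about the members. Same-numbered arrays of both genotypes deviated from their group means with correlations of -0.06, 0.18 and 0.01, so the numbers were not taken to pair the mice. All genes called ranged from 0 with the block to 12150 with an equal median of Sertoli markers, from 992.

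Members whose sign turned were, with the block, Piwil2 (-0.0041) and Prmt5 (0.018). With array weights they were Mael (0.017), Tdrd1 (0.014), Tdrkh (0.075), Prmt5 (0.0046), Nanos2 (-0.0088) and Nanos3 (-0.015). With cyclic loess they were Mael (0.054), Prmt5 (0.0014), Pabpc1 (0.0023), Nanos2 (-0.018), Nanos3 (-0.015) and Cpeb1 (-0.060). With the cell mix as a covariate they were Piwil1 (0.24), Mael (0.14), Asz1 (0.21), Pld6 (0.17), Henmt1 (0.090), Gtsf1 (0.24), Tdrd1 (0.29), Tdrd5 (0.35), Tdrd9 (0.20), Tdrkh (0.35), Ddx4 (0.039), Ddx25 (0.074), Prmt5 (0.052), Boll (0.14), Ybx2 (0.092), Cpeb2 (0.0099), Pabpc1 (0.0060), Tarbp2 (0.079), Dazl (-0.0066), Nanos3 (-0.084), Cpeb1 (-0.14), Nanos1 (-0.021), Pum2 (-0.11) and Dicer1 (-0.12). With an equal median of Sertoli markers every difference between 0 and 0.64 turned by construction, which says nothing particular to these genes, namely Piwil2 (-0.63), Mov10l1 (-0.54), Dazl (-0.47), Nanos2 (-0.63), Nanos3 (-0.61), Cpeb1 (-0.63), Nanos1 (-0.45), Pum2 (-0.58), Elavl1 (-0.59), Celf1 (-0.27), Tsn (-0.49) and Dicer1 (-0.39), and Snd1 (-0.029). Leaving out 1 array, differences ranged from -0.024 to 0.064 for Piwil2, -0.035 to 0.028 for Piwil4, -0.045 to 0.023 for Mael, -0.13 to 0.011 for Asz1, -0.12 to 0.030 for Tdrd1, -0.19 to 0.0086 for Tdrd5, -0.032 to 0.10 for Tdrkh, -0.031 to 0.018 for Prmt5, -0.052 to 0.043 for Nanos2, -0.0017 to 0.071 for Nanos3 and -0.026 to 0.076 for Cpeb1. The causes were not tested.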
